A study of Mus musculus with 29 samples.

Results

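The lungs compared here came from adult offspring that had all been made allergic to ovalbumin (OVA), an egg protein used to induce allergic airway disease (AAD), and that differed in what their mothers had inhaled. The PM-OVA group held 8 libraries from offspring of dams given fine particulate matter (PM2.5) intranasally, and the Sham-OVA group held 7 libraries from offspring of dams given saline. Dosing of the dams ran from before mating until weaning. All 15 animals were female Balb/c mice aged 13 weeks, sensitised to OVA by injection and then challenged with OVA aerosol, so that allergen exposure was common to both groups. These 15 libraries were chosen by their labels from 29 in the series, the other 14 being 7 Sham and 7 PM libraries from offspring that received no OVA. Whole-genome methylation sequencing after enzymatic conversion was done on DNA of a lung piece labelled RML. Each value is the percentage of methylated calls (%DNAm) in a window of 100 CpG cytosines on both strands that overlaps an annotated gene. In the reference genome 89.3% of the windows described span exactly 50 CpG dinucleotides and the others more. Of 260686 such windows, 250459 lay on chromosomes 1 to 19 and had a value in every one of the 15 libraries, and these are the windows described. The labels give neither the litter nor the dam of an animal, so pups of 1 dam may stand in the same group, and p-values measure the spread between these libraries. PM-OVA replicates 7 and 8 carry the library names Rel1 and Rel2, whose meaning the labels do not give.

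DNA methylation is the addition of a methyl group to cytosine, in mammals mostly where cytosine is followed by guanine (CpG). CpG-dense promoters are usually unmethylated, while gene bodies and the space between genes carry high methylation, and the pattern is copied by the maintenance enzyme Dnmt1 when cells divide. Because each cell type has its own pattern, the methylation of a piece of lung is an average over epithelium, endothelium, stroma and immune cells, and a change in the proportion of a cell type and a change of methylation within cells cannot be told apart in it.

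A window set by its number of CpGs is short where CpGs are dense and long where they are sparse. The sequences shown are from the shortest windows in each direction among those named for a small p or a wide difference, since the widest differences described further on fell in them and in other short windows. Each sequence is the stretch of 160 bases richest in CpG within its window, on the + strand of the reference genome GRCm38, with each CpG in capitals; the reference derives from C57BL/6J, not from Balb/c. The Caps2 and 2410018L13Rik windows were higher in PM-OVA, and the Galnt2l and Tex2 windows were lower.
2410018L13Rik, chr12:23010197-23010356: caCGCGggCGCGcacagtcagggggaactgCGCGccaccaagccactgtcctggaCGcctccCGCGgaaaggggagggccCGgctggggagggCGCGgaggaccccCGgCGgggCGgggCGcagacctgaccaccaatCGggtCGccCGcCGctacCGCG
Caps2, chr10:112173607-112173766: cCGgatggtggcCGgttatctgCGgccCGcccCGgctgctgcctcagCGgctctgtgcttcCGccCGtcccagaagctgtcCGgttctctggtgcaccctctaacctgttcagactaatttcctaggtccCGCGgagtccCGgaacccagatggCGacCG
Galnt2l, chr8:122336036-122336195: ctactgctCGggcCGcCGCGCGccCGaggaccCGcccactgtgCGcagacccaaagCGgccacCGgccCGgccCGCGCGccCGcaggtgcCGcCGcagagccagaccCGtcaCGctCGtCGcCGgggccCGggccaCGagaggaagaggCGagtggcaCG
Tex2, chr11:106584211-106584370: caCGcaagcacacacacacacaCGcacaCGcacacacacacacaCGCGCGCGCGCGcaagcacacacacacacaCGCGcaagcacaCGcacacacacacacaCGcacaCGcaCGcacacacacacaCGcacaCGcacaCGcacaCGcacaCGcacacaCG
The Tex2 stretch is a run of alternating CA and CG, with 21 CpGs in its 160 bases. The other 3 stretches hold 14 to 26 CpGs and are not simple repeats of this kind.

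The 15 libraries were alike in coverage and pattern. Between 258997 and 259234 windows had a value in each library, and the correlation across windows between any pair of libraries lay between 0.993 and 0.996, with no pair identical. Read depth behind single windows is unknown, since the files hold percentages without counts. As a check of the tissue, the lowest window of Sftpc, the surfactant gene of alveolar type II cells, had a mean of 47.4% over the 15 libraries and that of Alb, the serum albumin gene of liver, 71.3%, but other lung genes were high (Scgb1a1 73.4%, Ager 76.1%) and Gfap, an astrocyte gene, had a window at 16.0%. Methylation of these genes therefore did not mark the tissue by itself. The Y chromosome was not used.

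Methylation averaged over all windows was lower in PM-OVA by less than the spread between animals. The mean of a PM-OVA library ran from 67.8% through a median of 68.3% to 68.9%, and the mean of a Sham-OVA library from 67.8% through 68.8% to 69.5%. The ranges overlapped, 3 of 7 Sham-OVA libraries (replicates 1, 4 and 7) stood above every PM-OVA library, and Sham-OVA held both the lowest library (replicate 5) and the highest (replicate 1). Group means were 68.4% ± 0.391 (SD, n = 8) for PM-OVA and 68.7% ± 0.597 (SD, n = 7) for Sham-OVA, a difference of -0.346 percentage points (exact permutation test over all 6435 assignments of the maternal label, two-sided p = 0.199). Without Sham-OVA replicate 5 the difference was -0.506 points (exact permutation p = 0.0486), and without Sham-OVA replicate 1 it was -0.221 points (exact permutation p = 0.386).

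**Figure D1:**
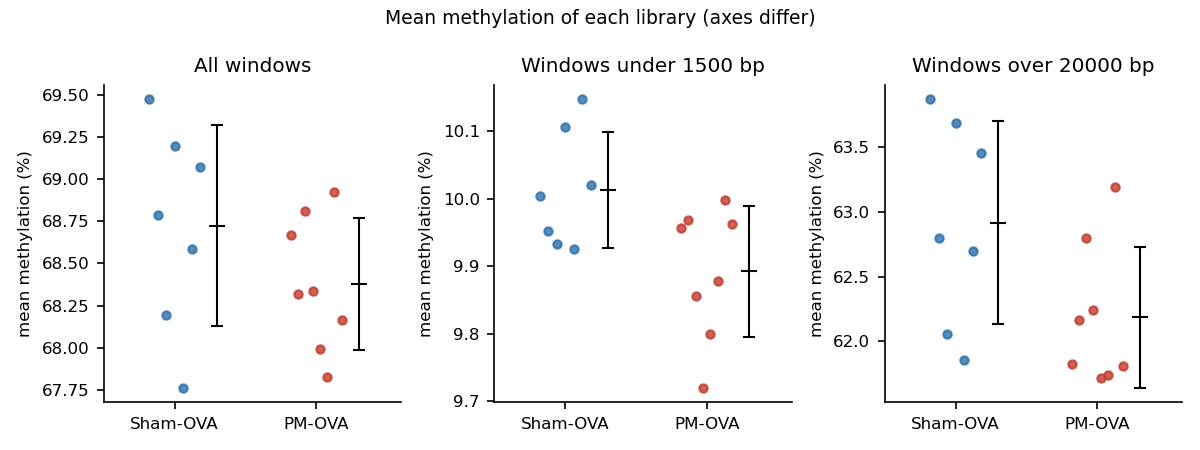
Mean methylation in percent (vertical axes, which differ between panels) of each Sham-OVA library (blue) and PM-OVA library (red) over all windows, over windows under 1500 bp and over windows over 20000 bp; the bar beside each group is its mean ± SD. The groups overlap in all 3 panels, and in the first the lowest and the highest library are both Sham-OVA.

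No single window met the definition of a differentially methylated region (DMR), here an adjusted limma p under 0.05 with at least 10 points between group means: 0 of 250459, and 0% of the 259167 windows tested (0 also without the 10-point minimum). The smallest adjusted p was 0.676. At an unadjusted p under 0.05 there were 15119 windows, 6.04% of those described and 5.96% of all tested windows. Of these, 12899 were lower in PM-OVA, where 5.09% of all tested windows were lower at that p, and 2220 were higher, where 0.872% were. Without Sham-OVA replicate 5 the counts were 19492 lower and 1617 higher, and without Sham-OVA replicate 1 they were 9283 and 3308. Differences were small throughout. The median window differed by -0.303 points and 166947 windows (66.7%) were lower in PM-OVA. A difference of at least 2 points was found in 8456 windows, of at least 5 points in 202, and of at least 10 points in 13. The 95% interval of the difference lay inside ±5 points in 98.2% of windows and inside ±10 points in 99.9%, and it reached 10 points in 318 windows. Intervals and standard errors come from a fit of the percentages. The limma p-values come from a fit of the log2 ratio of methylated to unmethylated share. The median standard error of a window's difference was 0.750 points.

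The balance of lower and higher windows depends on the level of each library. When each library was centred, by subtracting the median of its deviations from the window means, a shift of -0.288 points was removed from every difference, and the median difference went from -0.303 to -0.0149 points. Then 13188 windows (5.27%, and 5.19% of all tested windows) had an unadjusted p under 0.05, of which 6722 were lower and 6466 higher. This p came from the centred log2 ratio, but the side was read from the centred percentages. A window can therefore be counted on the side opposite to its sign on the tested scale. The same limit applies to all counts after centring given below. The share of such windows that were lower was 85.3% before and 51.0% after centring, a balance that centring brings about by its construction and that supports nothing by itself. All 6722 were among the 12899 windows lower before centring, and all 2220 windows that were higher before centring were higher at that p after it. Of all tested windows, 2.65% were lower and 2.54% higher at that p after centring. No window passed an adjusted p of 0.05 on this scale either.

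The classes of window length, which in this binning follows the spacing of CpGs, differed in their shift as deposited, and they also differ in methylation level. In the 20042 windows under 1500 bp, where CpGs are densest, PM-OVA libraries ran from 9.72% through 9.918% to 9.998% and Sham-OVA libraries from 9.93% through 10.004% to 10.1%. The difference of the group means was -0.120 points, with an exact permutation p of 0.0255 and 0.153 after adjustment over the 6 length classes. It was -0.238 points in windows of 1500 to 3000 bp, -0.311 in those of 3000 to 5000 bp, -0.407 in those of 5000 to 10000 bp and -0.586 in those of 10000 to 20000 bp. In the 316 windows over 20000 bp, PM-OVA libraries ran from 61.7% through 62.0% to 63.2% and Sham-OVA libraries from 61.9% through 62.8% to 63.9%, and the difference was -0.733 points (exact permutation p = 0.0563, adjusted p = 0.169). None of the 6 classes passed after adjustment. With Sham-OVA replicate 1 or replicate 5 left out, the difference was -0.138 or -0.383 points in windows of 1500 to 3000 bp, -0.182 or -0.482 in those of 3000 to 5000 bp, -0.263 or -0.586 in those of 5000 to 10000 bp and -0.405 or -0.782 in those of 10000 to 20000 bp. Among windows over 70% the difference also widened with length, from -0.136 to -0.848 points. Among windows at 10 to 70%, those under 1500 bp differed by -0.472 points, and the next 5 length classes by -0.293, -0.353, -0.433, -0.590 and -0.650 points, so that the shortest class alone broke the order. As a mean log2 ratio of methylated to unmethylated share, over windows of every level, the 6 classes from the shortest to the longest differed by -0.0295, -0.0196, -0.0256, -0.0335, -0.0437 and -0.0458, and the shortest class again broke the order. Taken relative to the library mean, the same classes ran from 0.225 points in the shortest windows (0.0989 and 0.371 without Sham-OVA replicates 1 and 5) to -0.387 points in the longest (exact permutation p = 0.0169, adjusted p = 0.102), and without PM-OVA replicate 7 the longest class reached -0.453 points with an adjusted exact permutation p of 0.0210.

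In percentage points, the shift was wider in windows of middle to high methylation than in windows near either end of the scale. Classes were set on the 7 Sham libraries without OVA, which take no part in the comparison. The difference was -0.0744 points in windows under 10%, -0.241 at 10 to 30%, -0.345 at 30 to 50%, -0.423 at 50 to 70%, -0.454 at 70 to 80%, -0.333 at 80 to 90% and -0.0770 in windows over 90%. With Sham-OVA replicate 1 or replicate 5 left out, these values were -0.276 or -0.608 at 50 to 70%, -0.298 or -0.645 at 70 to 80%, -0.201 or -0.503 at 80 to 90% and 0.0217 or -0.219 over 90%. No class passed as deposited (adjusted exact permutation p from 0.206 to 0.720). On the log2 ratio scale the low end did not stand apart, with -0.0299 in windows under 10%, -0.0201 at 10 to 30%, -0.0203 at 30 to 50%, -0.0266 at 50 to 70%, -0.0345 at 70 to 80%, -0.0330 at 80 to 90% and -0.00991 over 90%. Relative to the library mean, the 17532 windows over 90% were 0.269 points higher in PM-OVA (exact permutation p = 0.00264, adjusted over 7 classes 0.0185), and this was the only length, level or chromosome class to pass on either scale. In those windows the libraries as deposited ran from 90.7% through 91.3% to 91.7% in PM-OVA and from 90.5% through 91.5% to 91.9% in Sham-OVA, with full overlap. The result passed only for means on the percent scale. As a mean log2 ratio of methylated to unmethylated share, the class differed from the library mean by 0.02 (adjusted exact permutation p = 0.724). That was in the same direction and the widest among the 7 level classes on that scale. With medians over windows in place of means the adjusted exact permutation p was 0.0511. The cause was not tested.

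**Figure D2:**
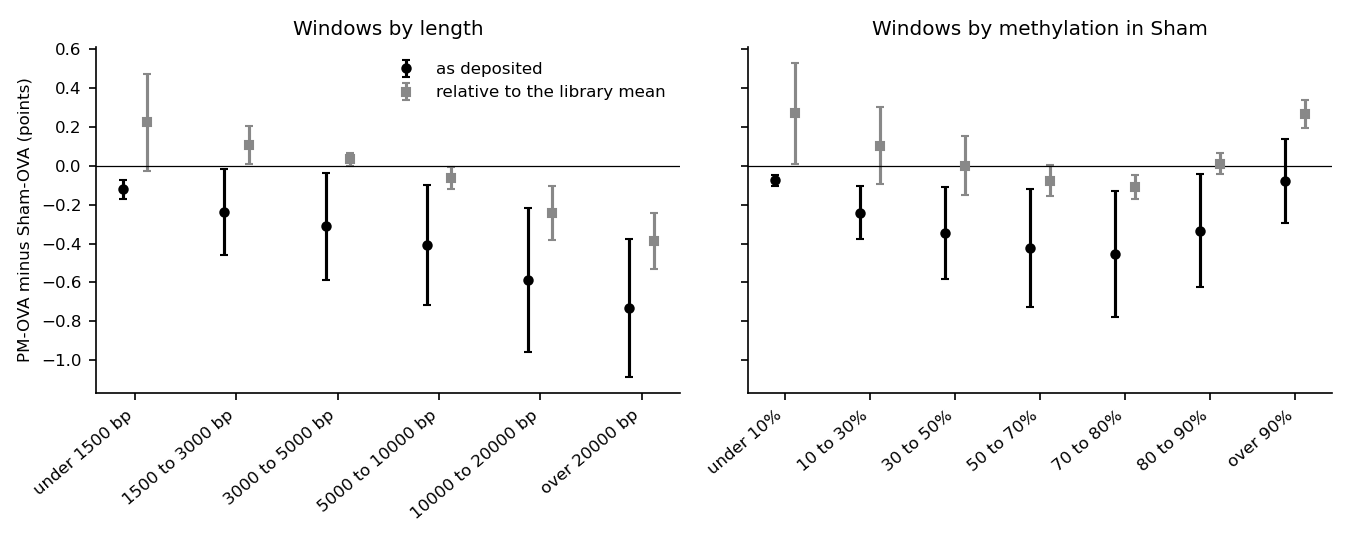
Difference in mean methylation, PM-OVA minus Sham-OVA in percentage points, for windows grouped by length (left) and by their level in the unchallenged Sham libraries (right), as deposited (black circles) and relative to each library's mean (grey squares); bars are the standard error of the difference. As deposited the differences go from -0.120 points in the shortest class to -0.733 in the longest, and relative to the library mean only the class over 90% passed.

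By chromosome, the difference as deposited ran from -0.279 points on chromosome 11 to -0.397 points on chromosome 3, and no chromosome passed after adjustment over 19 (adjusted exact permutation p from 0.256 to 0.257). Grouped by place in the gene, windows touching a promoter (2000 bp upstream of a start) differed by -0.323 points, windows with an exon and no promoter by -0.296 and windows within introns by -0.421, with unadjusted exact permutation p from 0.160 to 0.248. This last grouping was added after the data had been seen.

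**Figure D3:**
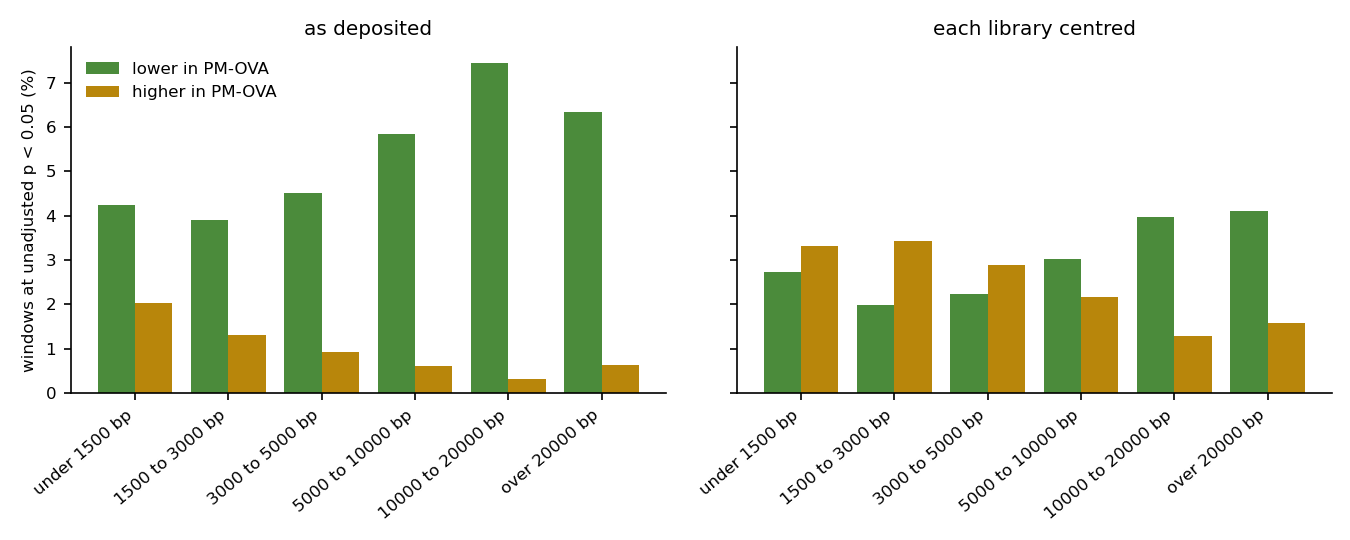
Share of windows in each length class (percent, vertical axis) with an unadjusted limma p under 0.05 that were lower (green) or higher (ochre) in PM-OVA, as deposited (left) and with each library centred (right). As deposited the lower windows outnumber the higher in every class. After centring, with the side read from the centred percentages and p from the log2 ratio, the higher windows outnumber the lower in the classes under 5000 bp. In those over 5000 bp the lower outnumber the higher.

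The windows given here for the smallest p on the higher side were all highly methylated, with group means from 81.4% to 99.0%. The window in Fasn, which encodes fatty acid synthase, spans chr11:120816788-120819004, holds exons and introns, and had 91.2% as the lowest, 92.3% as the median and 94.2% as the highest PM-OVA value, against 88.7%, 90.3% and 92.2% in Sham-OVA. In it 6 of 8 PM-OVA libraries stood above every Sham-OVA library, a difference of 2.34 points (95% interval 1.19 to 3.49, adjusted p = 0.676). The window in Xpot (chr10:121601421-121602875), which encodes the exportin of transfer RNAs, had 89.5%, 91.2% and 92.2% in PM-OVA against 87.6%, 88.9% and 90.2% in Sham-OVA, and again 6 of 8 libraries stood above the range of the other group (difference 2.23 points). An intron window of Cwf19l2 (chr9:3465264-3466433) was close to full methylation, at 99.0% ± 0.786 in PM-OVA and 96.7% ± 1.61 in Sham-OVA. The windows of Gm44790 and of Gxylt2, a xylosyltransferase that modifies Notch receptors, were higher by 2.10 and 2.69 points. The latter covers an annotated promoter and also overlaps Gm15576, so the promoter need not be that of Gxylt2.

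On the lower side the smallest p values fell in Gm28659, Gm16223, Amigo2, Lsamp, Robo2 and Speer4f2. The window of Lsamp, a cell adhesion protein of neurons, lies within an intron at chr16:40638187-40648886. Its PM-OVA values ran from 71.2% through 72.6% to 73.9% and its Sham-OVA values from 74.8% through 75.8% to 76.9%, so that all 8 PM-OVA libraries were below all 7 Sham-OVA libraries. The difference was -3.03 points (95% interval -4.14 to -1.91, adjusted p = 0.676). The Robo2 window (chr16:74035058-74044932), in the gene of a receptor for Slit guidance proteins, also separated the groups, with 68.3%, 71.8% and 73.1% in PM-OVA against 73.6%, 75.5% and 77.3% in Sham-OVA and a difference of -3.76 points. Such full separation was rare: in 64 windows all PM-OVA libraries were below all Sham-OVA libraries and in 7 they were all above, where 0.0251% and 0.0027% of all tested windows were. The differences in these windows ran from -4.15 to -0.374 points and from 0.781 to 3.85 points. The window of Amigo2, another adhesion protein, at chr15:97241056-97244256 differed by -2.49 points, that of Speer4f2 by -3.50, that of the unnamed gene Gm16223 by -5.11 and that of Gm28659 (chr1:10867004-10872984), which overlaps a promoter, by -3.08 points (adjusted p = 0.676). No window named by smallest p reached an adjusted p of 0.05 in any alternative setting.

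In the offspring that received no OVA, these windows differed by less and in either direction. The windows had been chosen for a small p with OVA, so smaller differences in other libraries can come from that choice alone. Whether the maternal difference depends on OVA was not tested. The same limit applies to the values without OVA given below for windows, runs and genes. There PM minus Sham was 0.355 points at Fasn, -0.120 at Xpot, -0.677 at Lsamp and -0.203 at Robo2. Gm16223 had the widest of these differences, at -2.80 points. The 2 contrasts share no library. Over all windows the median difference without OVA was 0.275 points, of opposite sign to that with OVA, and of the 12899 windows lower with OVA 34.7% were also lower without it, where 34.5% of all windows were. Of the 2220 windows higher with OVA, 66.3% were also higher without it, where 65.5% of all windows were.

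**Figure D4:**
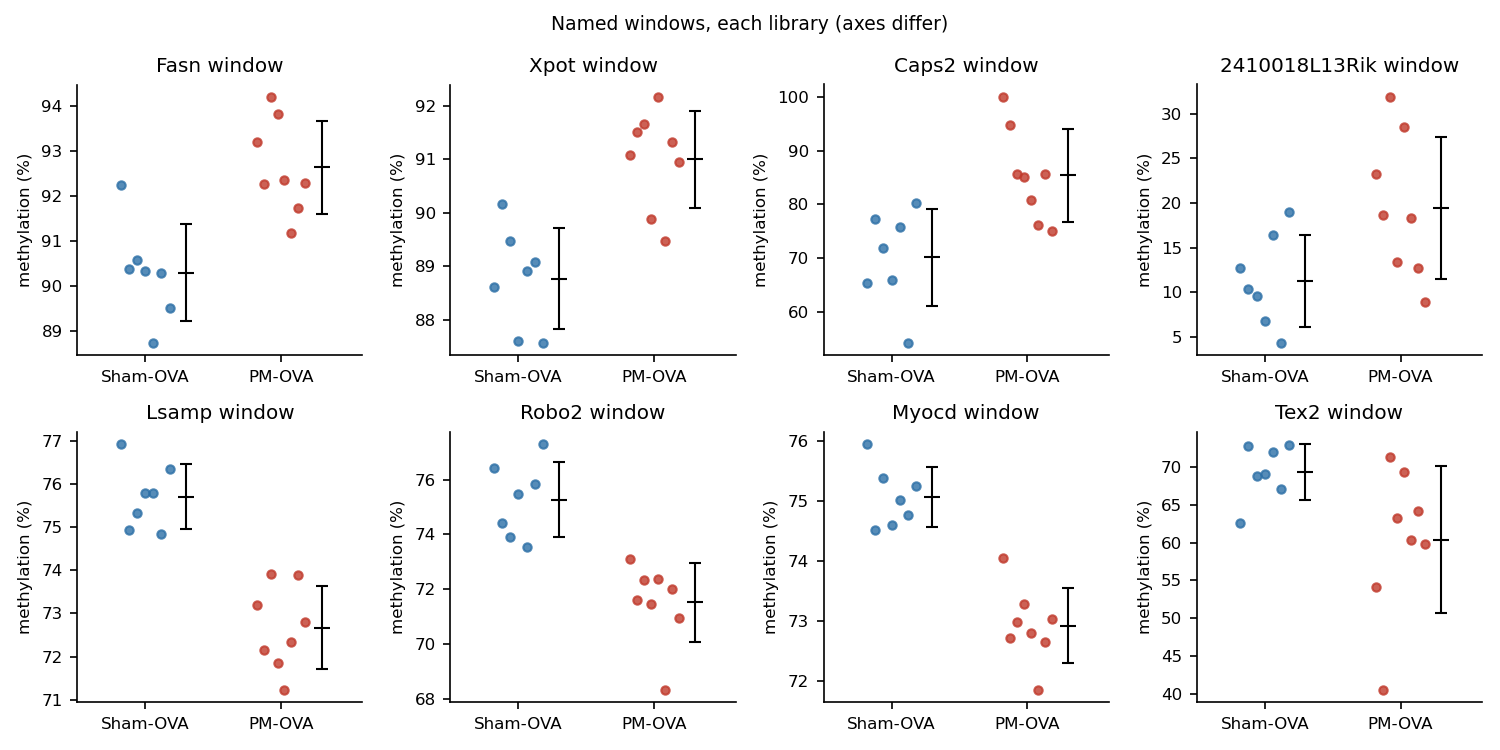
Methylation in percent (vertical axes, which differ between panels) of 8 named windows in each Sham-OVA library (blue) and PM-OVA library (red), with mean ± SD beside each group. The Lsamp, Robo2 and Myocd windows separate the groups fully, while the Caps2, 2410018L13Rik and Tex2 windows differ by more points and overlap.

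Among windows with an unadjusted limma p under 0.01, the widest differences belonged to short or variable windows in which single libraries were far apart. The Caps2 window, 919 bp in an intron at chr10:112173353-112174271, had 74.98% as the lowest, 85.3% as the median and 100% as the highest PM-OVA value, against 54.2%, 71.9% and 80.3% in Sham-OVA. The difference was 15.3 points with an interval from 6.98 to 23.5 (adjusted p = 0.805), and each group had an SD over 8 points. Caps2 encodes a calcium-binding protein. The 2410018L13Rik window, 815 bp at chr12:23010041-23010855 and wholly within a promoter, had 8.98%, 18.5% and 31.9% in PM-OVA against 4.35%, 10.4% and 19% in Sham-OVA, a difference of 8.14 points. It also differed in the offspring without OVA, by 6.79 points. Intron windows of Dnah7b, an axonemal dynein gene, and of Gm30835 were higher by 9.10 and 8.46 points.

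Among the widest differences downward, again at an unadjusted limma p under 0.01, the window that the files label Galnt2l (chr8:122336032-122336377, 346 bp) differed by -10.9 points. It lies, by the GENCODE M21 annotation, in an exon of Zfpm1, the gene of a cofactor of GATA factors, which Gm20388 overlaps. Its values were 40.2%, 55.3% and 63.9% in PM-OVA against 57.0%, 63.7% and 77.1% in Sham-OVA (adjusted p = 0.816). The Tex2 window (840 bp, chr11:106583932-106584771, intron) had 40.5%, 61.9% and 71.3% in PM-OVA against 62.6%, 69.1% and 72.9% in Sham-OVA and differed by -8.95 points. The Gm13283 and Gm5724 windows differed by -10.001 and -9.77 points. Of the 13 windows that differed by at least 10 points, 9 were shorter than 3000 bp, 7 were higher, 6 were lower, and 8 had an unadjusted p under 0.05.

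Some windows past an unadjusted p of 0.05 were neighbours. Taking neighbouring windows no more than 5000 bp apart that were on the same side at that p, there were 43 runs of at least 3 windows, all of them lower in PM-OVA: 37 runs of 3, 4 of 4 and 2 of 5. Pairs numbered 701 lower and 29 higher. Since 12899 windows in all were lower and 2220 higher at that p, no test was made of this count, which was chosen after the data had been seen. A run of 5 windows over 56939 bp of Malrd1 (chr2:15858175-15915113) had a mean of 74.8% ± 0.835 in PM-OVA and 76.9% ± 0.972 in Sham-OVA, and 7 of 8 PM-OVA libraries were below all Sham-OVA libraries. The second run of 5 lies over 4930542D17Rik on chromosome 16, at 77.1% ± 0.712 and 78.8% ± 0.899. Runs of 4 lay in Bend6, in Atp6v0a4, a subunit of the vacuolar proton pump, in Gm12381 and in Gpc5, a glypican, with mean differences from -2.20 to -1.76 points. Without OVA the mean differences of these 6 runs lay between -1.07 points (Gm12381) and 0.769 points (Bend6), and that of Malrd1 was -0.104.

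Methylation averaged over whole genes gave no gene that passed. Of 36004 genes, 0 had an adjusted limma p under 0.05 (0% of genes tested), while 2445 had an unadjusted p under 0.05 (6.79%), 2285 of them lower in PM-OVA (6.35%) and 160 higher (0.444%). Without Sham-OVA replicate 5 there were 4565 such genes. After centring, 2128 genes had such a p, of which 1074 were lower and 1054 higher in the centred percentages. Genes with many windows hardly moved: over the 6468 genes with at least 10 windows the difference lay between -2.36 and 1.40 points. The smallest gene p belonged to Gm28659, which has 1 window and was singled out after its value was seen (adjusted p = 0.0961, or 0.00875 without Sham-OVA replicate 5).

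Among genes with at least 3 windows, the smallest p on the higher side were those of Tap2, Lrrc59, 2410018L13Rik and Senp3. Tap2, a chain of the transporter that loads peptides onto MHC class I, had 65.4% ± 0.875 in PM-OVA and 63.9% ± 0.761 in Sham-OVA over 4 windows, a difference of 1.54 points (adjusted p = 0.683). Lrrc59, a protein of the endoplasmic reticulum, differed by 0.651 points and Senp3, a SUMO protease, by 0.372 points. The 5 windows of 2410018L13Rik averaged 48.4% ± 2.73 in PM-OVA and 44.3% ± 2.67 in Sham-OVA. Without OVA, PM minus Sham was -0.334 points at Tap2, 0.702 at Lrrc59, 0.151 at 2410018L13Rik and 0.122 at Senp3.

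On the lower side stood Sycp1, Hspa1b, Cd34 and Pabpc1. Sycp1, a component of the synaptonemal complex of meiosis, had 78.3% ± 0.471 in PM-OVA and 79.7% ± 0.518 in Sham-OVA over 13 windows, of which 4 were lower at an unadjusted p under 0.05 and 0 higher. Its difference was -1.44 points (adjusted p = 0.546). Hspa1b, an inducible heat-shock protein 70, had a low level of 7.52% ± 1.85 in PM-OVA and 9.84% ± 0.966 in Sham-OVA. Reads of Hspa1b and of its near-identical neighbour Hspa1a may be exchanged in mapping, so this value is uncertain. Cd34, a surface marker of endothelium and blood progenitors, had 49.3% ± 0.315 in PM-OVA and 50.8% ± 0.749 in Sham-OVA, and Pabpc1, the cytoplasmic poly(A)-binding protein, 32.6% ± 0.214 and 33.3% ± 0.374. In the offspring without OVA, Hspa1b differed by -1.32 points, while Sycp1, Cd34 and Pabpc1 differed by 0.246, 0.656 and 0.213 points.

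Genes of allergic inflammation and of the cell types of the lung were read from lists, with the 12899 lower and 2220 higher windows (5.09% and 0.872% of all tested windows) and the median of -0.303 points as the comparison. Sides after centring are those of the centred percentages. In the list of type 2 inflammation and eosinophils, 4 of 81 windows were lower and 1 was higher at an unadjusted p under 0.05, with a median of -0.341 points. After centring there were 2 lower and 1 higher, with a median of -0.0526. The window with the smallest p held untranslated exon of Il4ra, the receptor chain shared by interleukins 4 and 13 (chr7:125577858-125581364). Its values were 28.7%, 30.6% and 32.6% in PM-OVA against 31.7%, 32.8% and 34.3% in Sham-OVA, with 6 of 8 PM-OVA libraries below the Sham-OVA range and a difference of -2.12 points (adjusted p = 0.816).

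T cell genes had 0 lower and 1 higher of 112 windows and B cell genes 1 lower and 0 higher of 98, with medians of -0.180 and -0.121 points that became 0.108 and 0.167 after centring, when T cell genes had 0 lower and 4 higher windows and B cell genes 0 lower and 5 higher. The higher T cell window, in the adhesion receptor gene Cd2, had 73.2% ± 1.21 in PM-OVA and 71.5% ± 0.955 in Sham-OVA, with 7 PM-OVA libraries above and 1 below the whole Sham-OVA range. The lower B cell window, in an exon of the lineage factor Pax5, stood at 3.45% ± 0.374 and 4.17% ± 0.909 and was no longer past an unadjusted p of 0.05 after centring. Myeloid genes had 7 lower and 2 higher of 88 windows (median -0.401), and 6 lower and 3 higher after centring (median -0.113), with the promoter window of the macrophage scavenger receptor Marco at 69.0% ± 1.27 in PM-OVA and 71.0% ± 1.06 in Sham-OVA.

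Genes of the resident tissue were read in the same way, and over all windows too the lower side was the more frequent. Alveolar epithelial genes had 8 lower and 2 higher of 112 windows (median -0.402), airway epithelial genes 4 and 0 of 80 (median -0.583), endothelial genes 19 and 5 of 270 (median -0.428), and smooth muscle and fibroblast genes 11 and 0 of 134 (median -0.356). After centring the lower and higher windows of these lists numbered 2 and 3, 2 and 0, 10 and 8, and 5 and 3. At Nkx2-1, the transcription factor of lung epithelial identity, a CpG-dense window of 996 bp (chr12:56535122-56536117) was almost unmethylated, with 1.29%, 2.30% and 3.35% in PM-OVA against 2.82%, 3.68% and 5.59% in Sham-OVA. In it 7 of 8 PM-OVA libraries were below every Sham-OVA library (difference -1.59 points, adjusted p = 0.786). The unchallenged libraries had 1.65% (PM) and 1.58% (Sham) there.

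The promoter window of the mucin gene Muc5b differed by -3.06 points, at 54.4% ± 2.22 in PM-OVA and 57.4% ± 1.31 in Sham-OVA, where the unchallenged groups had 65.4% and 64.8%. Over the alternative settings the Muc5b difference ran from -3.40 to -2.03 points, and its unadjusted limma p reached 0.0984. A window of Ednrb, the endothelin B receptor, differed by -3.26 points (63.0% ± 1.95 against 66.2% ± 0.998), with 7 of 8 libraries below the Sham-OVA range. The Myocd window (chr11:65221076-65226243), in the gene of the coactivator that drives smooth muscle genes, had 71.9%, 72.9% and 74.1% in PM-OVA against 74.5%, 75.01% and 75.9% in Sham-OVA, so that the groups did not overlap. Its difference was -2.14 points (adjusted p = 0.816), and without OVA it was 0.562 points.

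Lists of pathways that answer to particulates, set methylation or shape the airway wall followed. Genes of the aryl hydrocarbon receptor pathway, which senses combustion products, had 5 lower and 0 higher of 93 windows (median -0.387), and 2 lower and 0 higher after centring (median -0.0986), and the window of its repressor Ahrr differed by -1.99 points. The unadjusted limma p of the Ahrr window reached 0.0878 in the alternative settings. Nrf2 antioxidant genes had 9 lower and 1 higher of 184 (median -0.281), and 3 lower and 8 higher after centring (median 0.00707), with an intron window of the transcription factor gene Maf at -2.66 points. The DNA methylation machinery had 5 lower and 3 higher of 151 (median -0.148), and 3 lower and 5 higher after centring (median 0.140), and a window wholly within untranslated exon of Tet3, a dioxygenase that oxidises 5-methylcytosine, differed by -1.69 points. TGF-beta and Smad genes had 10 lower and 4 higher of 310 (median -0.276), and 7 lower and 9 higher after centring (median 0.012). In Tgfbr2, the type II receptor of TGF-beta, a window at chr9:116103203-116105529 had 72.1%, 74.2% and 77.2% in PM-OVA against 75.02%, 79.2% and 80.8% in Sham-OVA, a difference of -4.26 points (adjusted p = 0.676).

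Genes of airway tone had 16 lower and 0 higher of 261 windows (median -0.417), with Ptger4, a prostaglandin E2 receptor, at -2.32 points. After centring that list had 10 lower and 8 higher windows. Imprinted genes, whose parental alleles differ in methylation, had 15 lower and 0 higher of 214 windows (median -0.466), and 7 lower and 1 higher after centring. The window of Grb10, an imprinted growth-factor receptor adaptor, differed by -2.26 points. No window of any list passed adjustment over all tested windows.

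Windows that respond to the allergen showed how unequal the animals were within each group. Taking OVA against no OVA with both maternal groups pooled, 863 windows gained and 753 lost at least 10 points at an adjusted p under 0.05. This choice used the same 15 libraries, so the values are a description. In the gaining windows PM-OVA had 55.9% ± 1.96 and Sham-OVA 56.7% ± 2.67, against 43.9% in PM and 42.9% in Sham, and in the losing windows PM-OVA had 54.0% ± 1.59 and Sham-OVA 54.3% ± 2.42, against 66.7% and 67.0%. Both extremes were Sham-OVA libraries: replicate 6 had the highest gaining mean (60.3%) and the lowest losing mean (51.2%), and replicate 7 the lowest (52.7%) and the highest (59.1%). Of the gaining windows, 35 were lower and 6 higher in PM-OVA at an unadjusted p under 0.05, and of the losing windows 18 were lower and 6 higher. These are 4.75% and 3.19% of the 2 sets, below the 6.04% of all windows described.

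**Figure D5:**
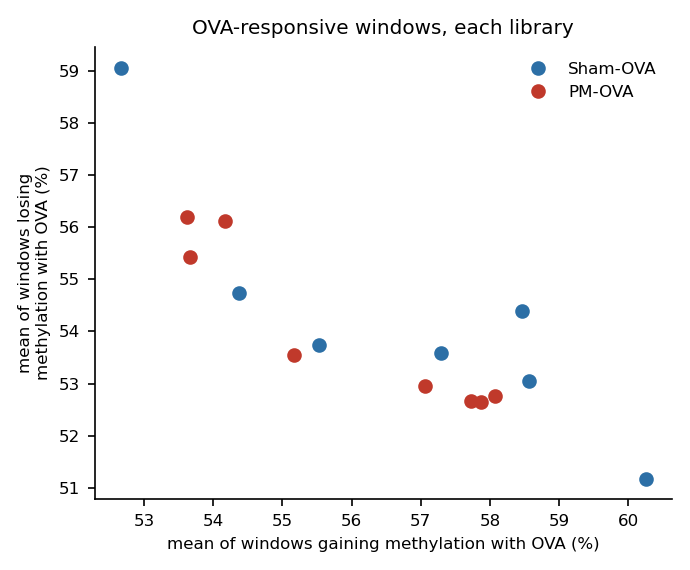
Mean methylation in percent of the 863 windows that gained (horizontal axis) and the 753 that lost methylation with OVA (vertical axis) in each Sham-OVA (blue) and PM-OVA (red) library. The maternal groups are mixed along the plot, and both ends of it are Sham-OVA libraries.

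The leading axes of variation among the challenged lungs did not separate the maternal groups. Component 1 held 14.6% of the variance and differed by 22.95 units of score between PM-OVA and Sham-OVA, at 10.7 ± 24.5 and -12.2 ± 39.9 (exact permutation p = 0.194, adjusted over 3 components 0.582). It followed the library mean, with a correlation of -0.977 over the 15 libraries, both being computed from the same windows. Component 2 (10.9% of the variance) had Sham-OVA replicate 7 at its end with a score of -85.9, and component 3 (8.85%) had Sham-OVA replicate 4 at -79.4, and on neither did the maternal groups separate (adjusted exact permutation p = 0.717 for both). The spread of a window was on balance wider in Sham-OVA, with a median SD of 1.52 points against 1.38 in PM-OVA, and 58.9% of windows had the larger SD in Sham-OVA.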

How the data were processed

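The authors trimmed reads with Trim Galore, called methylation with the DRAGEN pipeline against GRCm38, and used SeqMonk to average calls over windows of 100 CpG cytosines. The deposited values are percent methylation per window and library, with no counts, so the edgeR test of the study could not be run and no depth or counting interval is given. The number of columns of other samples was 0. Percentages were transformed as log2((percent + 1)/(100 - percent + 1)) and fitted with limma 3.58.1 (R 4.3.3) over all 29 libraries in 4 groups, for windows with at least 3 values per group. P-values were adjusted by Benjamini-Hochberg over all 259167 windows, or over 36004 genes for gene means. Differences are in percentage points. Library and class means were compared by exact permutation of the maternal label. Genes and exons come from GENCODE M21 (GRCm38). The code was tested on simulated data. Members and lists were chosen with earlier results of these data known. Named windows are the 6 smallest p per direction, the 4 widest differences per direction at an unadjusted p under 0.01, and the smallest p of each of the 14 lists; named genes are the 4 smallest p per direction with at least 3 windows. Windows of chromosome 18 are counted but not named. The window with the smallest p, which was higher in PM-OVA, is not reported here. Sequences are from the shortest windows named for p or difference, 2 per direction, leaving out windows named from lists. Listed genes without a window (Ear2, Il13ra1, Ms4a1, Tcf21, Ugt1a6a, Gpx2, Cysltr1, Kcnq1ot1, Nnat) were left out. Alternatives were another offset, the percent scale, the 15 libraries alone, centring, other minimum differences, windows complete in all libraries, each library left out, both Rel libraries left out, and the replicate number as a block.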

Additional observations from a re-analysis of the deposited data

Results flagged for a closer look

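Within each group, the gap between the highest or lowest library and its nearest neighbour was set against the range of the group (Dixon's criterion), for every library mean, class, component, named window, named gene and run given above. Chance flags about 1 in 20 groups, and 6 values passed in 136 groups. In the Cwf19l2 window, PM-OVA replicate 6 was lowest at 97.3% (gap 0.559 of the range) and Sham-OVA replicate 3 was lowest at 93.4% (gap 0.598). In the Robo2 window, PM-OVA replicate 6 was lowest at 68.3% (gap 0.550). In the Cd2 window, PM-OVA replicate 8 was lowest at 70.3%, below every Sham-OVA library, while the other 7 stood above them all (gap 0.736). In the gene mean of 2410018L13Rik, Sham-OVA replicate 7 was highest at 50.1%, with the other Sham-OVA libraries from 42.0% to 44.5% (gap 0.695), and without it the difference was 5.06 points in place of 4.10. In the gene mean of Cd34, Sham-OVA replicate 5 was lowest at 49.3% (gap 0.617), within the range of PM-OVA. A difference in the maternal contrast with and without OVA was not tested.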

How the results depend on the processing

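The count of DMRs was 0 under every alternative run, and windows at an unadjusted p under 0.05 numbered from 12002 to 21109 with each library left out in turn (without Sham-OVA replicates 4 and 5). Genes past an adjusted p of 0.05 numbered 0 to 1 with a library left out, the 1 being Gm28659 without Sham-OVA replicate 5, and genes at an unadjusted p under 0.05 from 1672 to 4565 (lowest and highest when Sham-OVA replicates 1 and 5 were left out), or 1216 among genes with at least 3 windows, where fewer genes were tested. The mean difference ran from -0.506 to -0.221 points with a library left out. For windows over 90% relative to the library mean it ran from 0.235 to 0.311 points and stayed past an adjusted p of 0.05, but with medians over windows it was 0.429 points (adjusted p = 0.0511, so that 0 level classes passed) and on the log2 ratio scale 0.0197 (adjusted p = 0.724). Length classes past that p relative to the library mean numbered 0 to 1 with a library left out.

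Some class differences changed sign. Relative to the library mean, windows at 30 to 50% ran from -0.0832 to 0.0879 points and at 80 to 90% from -0.0177 to 0.0451 with a library left out, and windows over 90% as deposited from -0.219 to 0.0217. Windows at 50 to 70% had 0.0330 points with medians, windows at 30 to 50% had -1.63e-06 with unchallenged PM as baseline, and on the log2 ratio scale the classes under 10%, 50 to 70% and 80 to 90% had -0.000332, 0.00301 and -0.0034, where windows under 10% had 0.271 points on the percent scale. The cause was not tested.

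Samples with the same replicate number did not deviate together (correlations from -0.0399 to 0.0457), so no pairing by number was seen. The labels do not say what the numbers stand for. With the replicate number of the titles as a block, 14969 windows had an unadjusted p under 0.05, 0 were DMRs, 1 gene passed (adjusted p = 0.0322) and the mean difference was -0.315 points (exact permutation p = 0.188). With the numbers of the library names as a block there were 19360 such windows, and without Rel1 and Rel2 there were 15480. Percentages without read counts limit what can be said of single short windows.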
